A study of Homo sapiens with 24 samples.

Results

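The effect of BRD8518 at 6 h was set against the effect of oncostatin M (OSM) at 1 h in HepG2 cells, a line derived from a human liver tumour with hepatocyte-like expression. The quantity described is a difference of differences on the log2 scale, in which the change of each gene in the OSM arm (OSM at 1 h minus DMSO at 1 h) was subtracted from its change in the BRD8518 arm (BRD8518 at 6 h minus DMSO at 6 h). It used 12 of the 24 arrays of the series, namely 2 with 1 uM BRD8518 for 6 h, 4 with DMSO for 6 h, 3 with 100 ng/mL OSM for 1 h and 3 with DMSO for 1 h. The 2 arms shared no control array, and each lay within a single letter of the position codes in the labels, whose meaning is not stated. BRD8518 is a small molecule known here only by its code name. All cells, the OSM wells included, received the same final share of DMSO, per the labels' protocols, and OSM itself was dissolved in PBS. These 2 times were chosen because TRIB1, a gene measured in the study, was highest then, so TRIB1 is described without a test. Agent and time differ together in this contrast and cannot be told apart within it. The labels do not state whether replicate arrays stem from separate cultures. The p-values therefore reflect array-to-array spread, possibly technical.

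The hepatocyte label was checked against 6 measured marker genes. Over the 12 arrays, the log2 values ran from 12.21 to 12.54 for ALB (albumin), from 11.75 to 11.97 for AFP (alpha-fetoprotein), from 12.47 to 12.66 for APOB (apolipoprotein B) and from 10.47 to 10.70 for TTR (transthyretin). They were lower for APOA1 (apolipoprotein A1), at 8.34 to 9.50, and for the transcription factor FOXA2, at 7.71 to 8.20, which ranked at percentiles 87.2 and 79.2 of the 14884 genes tested. Of 13 measured markers of other cell types, DCN (decorin, a fibroblast product) was lowest at 2.32 to 2.52, and VWF and KDR of endothelium stayed at or under 5.25. Several others were high, namely LYZ (lysozyme) at 12.03 to 12.33, the biliary factor SOX9 at 10.64 to 10.85, the macrophage marker CD68 at 9.44 to 10.13 and the epithelial EPCAM at 8.40 to 8.91. Of these 13, CD68 passed in the BRD8518 arm, where 14.5% of all genes did, and CD14 in the OSM arm, where 2.84% did. 1 control array stood apart. DMSO 6 h replicate 2 (position D4 in the labels) had a mean correlation of 0.9769 with the other DMSO 6 h arrays, which reached 0.9882 to 0.9905, and a standard deviation of 0.438 around the mean of the rest of its group, against 0.175 to 0.25 for those. The main counts are also given without this array.

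OSM is a cytokine of the interleukin-6 family. It binds receptors built around gp130, which activate JAK kinases and the transcription factor STAT3, and it also activates the ERK MAP kinase cascade. STAT factors switch on hepatocyte acute phase genes together with the SOCS genes, whose products shut the receptor signal down. ERK phosphorylates ternary complex factors that sit with the serum response factor SRF on immediate-early genes such as EGR1 and FOS, while actin dynamics drive SRF and YAP on cytoskeletal genes. TRIB1 encodes a pseudokinase that lowers plasma lipids when raised in mouse liver.

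At an adjusted p under 0.05, 866 of 14884 genes (5.82%) differed between the 2 effects by limma's test of the difference. Of these, 338 (2.27%) were higher with BRD8518 and 528 (3.55%) were lower with it. In the BRD8518 arm 2155 genes changed (14.5%), 836 up (5.62%) and 1319 down (8.86%). In the OSM arm 423 genes changed (2.84%), 302 up (2.03%) and 121 down (0.813%). When each array was centred on its median, the split of the BRD8518 arm turned to 1309 up and 943 down, and that of the difference to 474 higher and 363 lower. So which direction held more genes depended on the scaling. Leaving out BRD8518 replicate 1 or replicate 2 gave 520 and 527 genes in the difference and 1349 and 1208 in the BRD8518 arm. The single BRD8518 array left was then assumed to vary like the other groups. Leaving out DMSO 1 h replicate 3 gave 274 genes in the OSM arm.

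Both arms called 203 genes with the same sign (1.36% of genes), 141 rises (0.947%) and 62 falls (0.417%). These shared genes were 48.0% of the OSM list and 9.42% of the longer BRD8518 list. Shared rises made up 46.7% of OSM rises and 16.9% of BRD8518 rises. Opposite signs were called for 18 genes (0.121%), 3 higher with BRD8518 and 15 higher with OSM. A gene was given to 1 arm only where that arm and the difference both passed the threshold and the other arm did not. By that rule 266 genes rose and 391 fell with BRD8518, and 80 rose and 18 fell with OSM. Without BRD8518 replicate 1 the BRD8518 numbers were 146 and 231, and without replicate 2 they were 178 and 196. For a further 1275 genes called in the BRD8518 arm alone and 104 called in the OSM arm alone the difference did not pass, so these were given to neither. Of the 68 genes that rose at least 2-fold with OSM, 39 were shared rises, 26 belonged to OSM alone by that rule and 3 had opposite signs. Of the 101 that rose at least 2-fold with BRD8518, 47 were shared, 48 belonged to BRD8518 alone and for 6 the difference did not pass. Across all 14884 genes the changes in the 2 arms had a Pearson correlation of 0.31, and across the 423 genes called with OSM it was 0.51. These are descriptions across genes, which are not independent replicates.

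**Figure D1:**
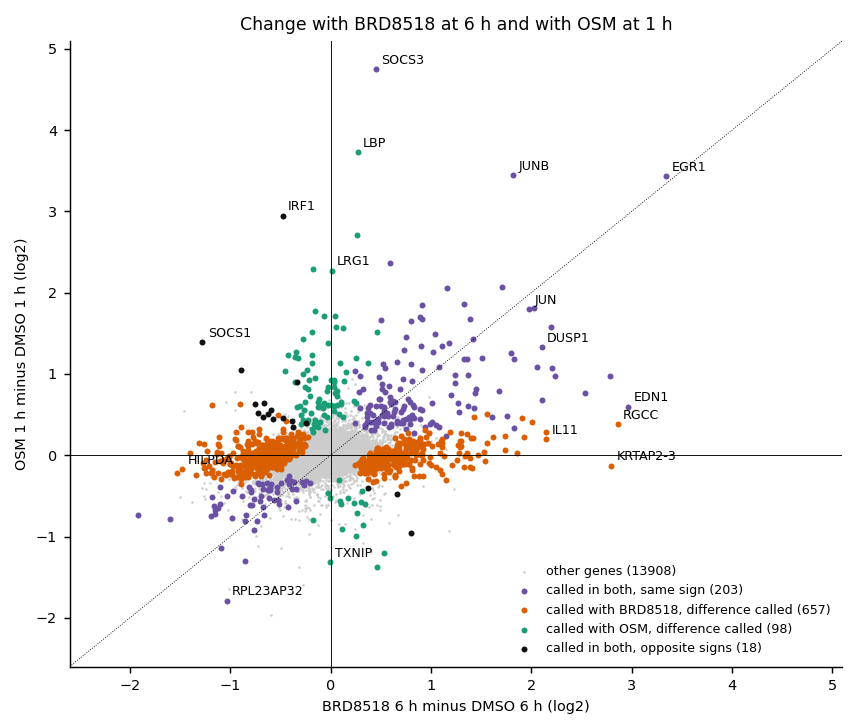
Change of each gene with BRD8518 at 6 h (horizontal axis, log2) and with OSM at 1 h (vertical axis, log2), each against DMSO of the same time. Purple points are the 203 genes called in both arms with the same sign, orange and green points those called in 1 arm and in the difference, black points the 18 with opposite signs, and grey points the rest. EGR1 and JUN lie near the dotted line of equal change, SOCS3 and LBP lie high near the vertical axis, and KRTAP2-3 and RGCC lie far right near the horizontal axis.

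TRIB1, whose highest levels set the 2 times, had log2 values of 10.61 and 10.47 with BRD8518 at 6 h, against 8.96, 9.23, 9.2 and 9.21 with DMSO at 6 h. It had 10.69, 10.89 and 10.84 with OSM at 1 h, against 9.15, 9.12 and 9.12 with DMSO at 1 h. The treated arrays lay above all control arrays in both arms, and the mean change was 1.39 with BRD8518 and 1.68 with OSM. Of its relatives, TRIB3, a pseudokinase induced by amino acid and ER stress, changed by 0.78 with BRD8518 and by 0.20 with OSM (difference 0.58 ± 0.13 SE, adjusted p = 0.0089). TRIB2 had changes of -0.12 with BRD8518 and 0.08 with OSM, and neither passed.

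The immediate-early transcription factors were the group most fully shared. Of 17 measured, 15 rose in the BRD8518 arm and 14 in the OSM arm, with no fall in either, and 14 were shared rises. The median change was 0.91 with BRD8518 and 1.38 with OSM, against -0.01 and 0.01 over all genes. The difference passed for 5 of the 17, with 1 higher and 4 lower with BRD8518. EGR1, a zinc finger factor induced within minutes of ERK activation, had 11.54 and 11.53 with BRD8518 at 6 h against 7.95, 8.49, 8.12 and 8.21 with DMSO. It had 11.85, 11.80 and 11.84 with OSM at 1 h against 8.34, 8.43 and 8.43 with DMSO. No treated array overlapped a control array in either arm, as for 27.0% of all genes in the BRD8518 arm and 22.7% in the OSM arm. EGR1 rose 10.2-fold with BRD8518 and 10.8-fold with OSM, and the difference of -0.09 had a 95% interval from -0.48 to 0.31 (adjusted p = 0.89).

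The EGR1 promoter is shown because EGR1 had the largest rise common to both arms and is a textbook SRF target. The window runs from 250 bases before to 50 after the start, from RefSeq on GRCh38.p14, chr5:138465229-138465528, plus strand. Capitals mark 2 matches to the SRF motif known as the CArG box, which begin 105 and 83 bases before the start. No other motif was marked in this window. Further upstream it also holds TTCCCCGAA, a match to the STAT motif TTCNNNGAA, left in lower case.
EGR1: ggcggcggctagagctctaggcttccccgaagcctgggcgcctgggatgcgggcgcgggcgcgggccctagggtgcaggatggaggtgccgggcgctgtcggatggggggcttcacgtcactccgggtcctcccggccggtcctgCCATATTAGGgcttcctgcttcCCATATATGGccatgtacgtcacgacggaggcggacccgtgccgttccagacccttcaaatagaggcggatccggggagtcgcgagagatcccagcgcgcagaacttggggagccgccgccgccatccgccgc
A CArG box stood in 4.03% of the 149 listed promoters of shared rises, in 4.75% of the 337 of genes that rose with BRD8518 alone, in 1.20% of the 83 of genes that rose with OSM alone and in 1.30% of the 14884 promoters of all tested genes. Genes can have several listed starts, and 10749 of the genes tested had at least 1. A match is a description of the letters and not a measured binding site.

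JUN, an AP-1 subunit, had 9.63 and 9.52 with BRD8518 against 7.53 to 7.67 in the 4 DMSO 6 h arrays, and 9.63, 9.57 and 9.52 with OSM against 7.73 to 7.82 in the 3 DMSO 1 h arrays. Its changes of 1.98 and 1.80 differed by 0.18 (95% interval -0.05 to 0.42, adjusted p = 0.45). IER3, an early response gene that limits apoptosis, changed by 1.42 with BRD8518 and 1.43 with OSM, and the interval of the difference ran from -0.24 to 0.23. The treated and control arrays of both genes stood apart in both arms. The shared rises also included KLF6, a Kruppel-like factor (1.70 with BRD8518, 2.07 with OSM), FOSL1, an AP-1 subunit (1.51 and 1.19), HBEGF, an EGF receptor ligand (1.33 and 1.86), and the long non-coding RNA LINC-PINT (2.20 and 1.57). For KLF6, FOSL1 and LINC-PINT the difference did not pass (adjusted p = 0.13, 0.092 and 0.14), though for FOSL1 it did without DMSO 6 h replicate 2 (0.35, adjusted p = 0.022). HBEGF was lower with BRD8518 by 0.53 (adjusted p = 0.027), a call lost under 10 of 23 alternatives.

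The AP-1 and related genes that did differ were mostly larger with OSM. JUNB, an AP-1 subunit and STAT3 target, had 9.04 and 9.04 with BRD8518 against 7.11, 7.61, 7.03 and 7.12 with DMSO at 6 h, and 10.73, 10.62 and 10.56 with OSM against 7.22, 7.19 and 7.18 with DMSO at 1 h. All treated arrays were above their controls, and the OSM arrays were above the BRD8518 arrays. JUNB rose 3.53-fold with BRD8518 and 10.9-fold with OSM (difference -1.62 ± 0.17 SE, adjusted p = 2.1e-06). CSRNP1, a nuclear protein induced by growth factors, changed by 0.59 and 2.36 (difference -1.77, adjusted p = 1.3e-06), FOSL2 by 0.80 and 1.65 (difference -0.85, adjusted p = 9.4e-05) and FOS by 0.91 and 1.85 (difference -0.94, adjusted p = 0.019, lost under 6 of 23 alternatives). MYC, a driver of growth genes, was the member higher with BRD8518. Its values were 10.32 and 10.38 with BRD8518 against 9.21 to 9.28 with DMSO at 6 h, and 9.52 to 9.54 with OSM against 9.32 to 9.38 with DMSO at 1 h. MYC rose by 1.10 with BRD8518, its OSM change of 0.18 did not pass (adjusted p = 0.19), and the difference was 0.92 (adjusted p = 9.7e-07).

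Part of the MAP kinase feedback inhibitors were shared, and 7 of 14 rose more with BRD8518. These genes encode phosphatases and adaptors that switch ERK and JNK signalling off again. Of 14 measured, 11 rose with BRD8518 and 7 rose with OSM, all 7 of them shared, and none fell. The difference was lower with BRD8518 for 1 and did not pass for 6. DUSP1, a nuclear MAP kinase phosphatase, had 9.72 and 9.69 with BRD8518 against 7.71, 7.53, 7.65 and 7.52 with DMSO, and 9.09, 9.03 and 9.03 with OSM against 7.66, 7.66 and 7.84 with DMSO. It rose 4.30-fold with BRD8518 and 2.51-fold with OSM (difference 0.77, adjusted p = 5.6e-05), with no overlap of arrays in either arm. DUSP5, a nuclear ERK phosphatase, changed by 2.11 and 0.68 (difference 1.43, adjusted p = 2.2e-05), and DUSP8, a JNK and p38 phosphatase, by 1.76 and 0.48 (difference 1.28, adjusted p = 6.3e-06). SPRY4, a Sprouty inhibitor of receptor tyrosine kinase signalling, changed by 1.79 and 1.25 (difference 0.54, adjusted p = 0.0089), a call lost under 2 of 23 alternatives. Among the 7, the calls of DUSP10 (difference 0.62) and ERRFI1 (0.46) were lost under 10 and 8. DUSP6, a cytoplasmic ERK phosphatase, was the member lower with BRD8518, with changes of 0.90 and 1.35 (difference -0.45, adjusted p = 0.022), a call lost under 6 of 23 alternatives.

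**Figure D2:**
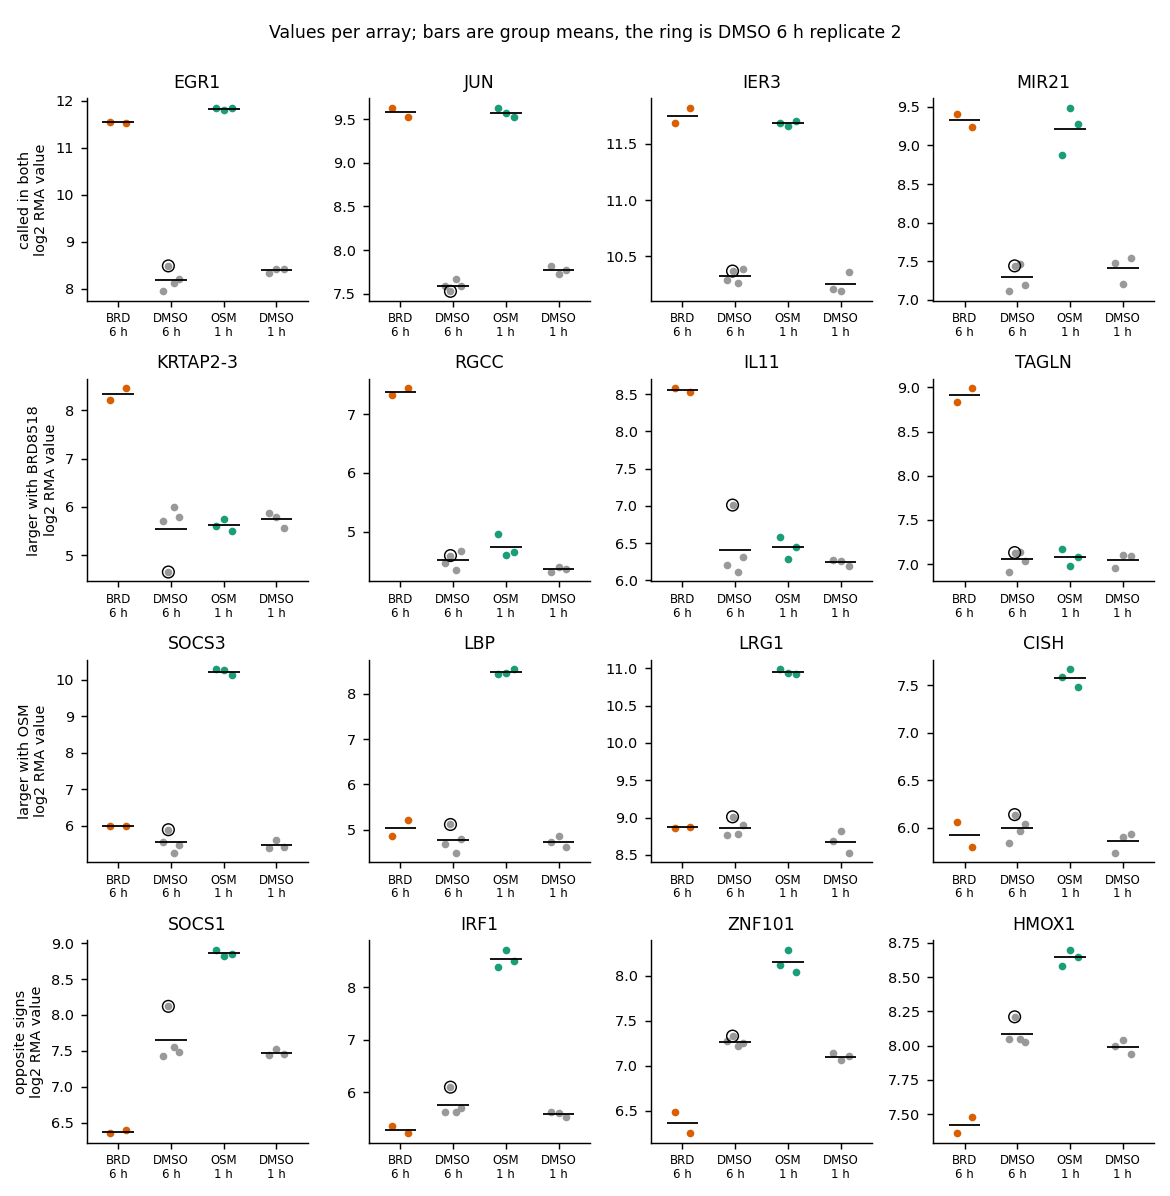
Log2 RMA value of 16 genes on each array of the 4 groups, each treated group to the left of its DMSO group. Points are arrays, bars are group means and the ring marks DMSO 6 h replicate 2. EGR1, JUN, IER3 and MIR21 were high in both treated groups, KRTAP2-3, RGCC, IL11 and TAGLN with BRD8518, and SOCS3, LBP, LRG1 and CISH with OSM, while in the lowest row the BRD8518 arrays lay below and the OSM arrays above their controls.

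Not all shared rises were equal in size. For 51 of the 203 shared genes the difference itself passed. Among shared rises, 30 were larger with BRD8518 and 17 larger with OSM. For the 152 shared genes whose difference did not pass, the 95% interval lay within 1 log2 unit on either side of 0 for 145 of them and within 0.5 for 71. A missed threshold therefore left room for differences of some size in the others.

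With all arrays shared falls were fewer than shared rises, 62 against 141, but they made up 51.2% of OSM falls. Their number, and which direction held more, depended on single arrays. Without OSM 1 h replicate 1 or DMSO 1 h replicate 1 they numbered 23 each. Without OSM 1 h replicate 3 or DMSO 1 h replicate 3 they numbered 31 and 28. Without DMSO 6 h replicate 2 they numbered 216, against 209 shared rises, and with array weights 337 against 234. The 6 largest included several non-coding or poorly known transcripts. RPL23AP32, a ribosomal protein pseudogene inside SPTBN1, had 7.73 and 7.50 with BRD8518 against 8.50, 8.78, 8.93 and 8.40 with DMSO, and 7.04, 7.64 and 6.91 with OSM against 8.99, 8.68 and 9.29 with DMSO. KCNQ1OT1, the long RNA that silences genes of an imprinted cluster, fell by 0.86 with BRD8518 and by 0.81 with OSM. The others were MIR4499 (-1.09 with BRD8518, -1.15 with OSM, at values of 1.57 to 3.52 where signal is low), FRG1HP (-0.85 and -1.31), MIR570 (-1.6 and -0.79) and the zinc finger gene ZNF572 (-0.99 and -0.77). The difference passed for none of the 6 with all arrays and for MIR570 without DMSO 6 h replicate 2 (-0.98, adjusted p = 0.028). At an unadjusted 95% level the interval excluded 0 for RPL23AP32 (0.15 to 1.36) and MIR570 (-1.44 to -0.18). FOXA2, a hepatocyte pioneer factor, fell by 0.21 with BRD8518 (adjusted p = 0.045), a call lost under 12 alternatives, and by 0.34 with OSM.

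Many genes of the cytoskeleton and of SRF and YAP control rose with BRD8518. Of 18 measured targets, 13 rose with BRD8518, where 5.62% of all genes rose, and 4 with OSM, where 2.03% did. None fell, and the difference was higher with BRD8518 for 9 and lower for none. The median change was 0.53 with BRD8518 and 0.05 with OSM. TAGLN, an actin-binding protein of smooth muscle, had 8.83 and 8.99 with BRD8518 against 6.91, 7.13, 7.14 and 7.04 with DMSO at 6 h, while OSM arrays had 7.17, 6.98 and 7.08 and DMSO 1 h arrays 6.95, 7.10 and 7.09. The BRD8518 arrays stood clear of all others and the OSM arrays overlapped their controls. TAGLN changed by 1.86 with BRD8518 and 0.03 with OSM (difference 1.83 ± 0.16 SE, adjusted p = 1.5e-07). CCN2, a secreted matrix protein and YAP target, changed by 0.93 and -0.25 (difference 1.18, adjusted p = 5.5e-07), and FHL2, a LIM-domain cofactor, by 0.85 and 0.01 (difference 0.85, adjusted p = 0.0018). ANKRD1, a YAP target, was a shared rise of unequal size, with 11.97 and 11.97 with BRD8518 against 9.28 to 9.55 with DMSO and 10.49, 10.25 and 10.46 with OSM against 9.56 to 9.68 with DMSO. It changed by 2.54 and 0.77 (difference 1.77, adjusted p = 1.8e-08). SRF itself rose by 1.08 with BRD8518 and by 0.34 with OSM (difference 0.74, adjusted p = 7.9e-05).

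The largest difference in favour of BRD8518 was that of KRTAP2-3, a hair keratin-associated protein gene. It had 8.21 and 8.46 with BRD8518 against 5.70, 4.65, 6.00 and 5.80 with DMSO at 6 h, and 5.61, 5.75 and 5.50 with OSM against 5.88, 5.80 and 5.56 with DMSO at 1 h. It rose 6.94-fold with BRD8518 and its OSM change of -0.13 did not pass (difference 2.92 ± 0.32 SE, adjusted p = 2.9e-06). The low control value of 4.65 came from DMSO 6 h replicate 2, and over all 23 alternatives the difference ran from 2.63 to 3.08. RGCC, a regulator of the cell cycle, had 7.32 and 7.44 with BRD8518 against 4.35 to 4.66 with DMSO, and 4.95, 4.60 and 4.65 with OSM against 4.31 to 4.39 with DMSO. It changed by 2.86 and 0.38, and the OSM change at 1 h did not pass (difference 2.48, adjusted p = 3.9e-08). At 24 h RGCC had 6.85, 6.4 and 6.45 with OSM, above the 4.51, 4.26 and 4.65 with DMSO. With BRD8518 at 24 h it had 8.47, 8.73 and 8.6. KLF5, a Kruppel-like factor of proliferating epithelium, rose by 1.74 with BRD8518 and had 0.24 with OSM (adjusted p = 0.051, difference 1.49, adjusted p = 1.3e-09), and TCIM, a small regulator of Wnt signalling, rose by 2.15 and had 0.28 with OSM (difference 1.87, adjusted p = 2.8e-09).

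Several secreted factors rose more with BRD8518. Of 20 growth factors and cytokines measured, 10 rose and 1 fell with BRD8518, 7 rose with OSM, and the difference was higher with BRD8518 for 7 and lower for 2. EDN1, the vasoconstrictor endothelin 1, had 8.43 and 8.51 with BRD8518 against 5.33 to 5.72 with DMSO, and 6.09, 6.09 and 6.10 with OSM against 5.32 to 5.73 with DMSO. It rose 7.81-fold with BRD8518 and 1.52-fold with OSM (difference 2.37, adjusted p = 1.8e-08). IL11, a gp130 cytokine like OSM, had 8.58 and 8.53 with BRD8518 against 6.20, 7.01, 6.11 and 6.31 with DMSO, and 6.58, 6.29 and 6.45 with OSM against 6.19 to 6.27 with DMSO. The BRD8518 arrays lay above every other array, and IL11 rose 4.44-fold with BRD8518 while its OSM change of 0.20 did not pass (difference 1.95, adjusted p = 2.9e-06). LIF, another gp130 cytokine, was shared, with changes of 2.05 and 1.09 (difference 0.96, adjusted p = 0.00014). The EGF receptor ligand EREG changed by 1.39 and -0.03 and the activin antagonist FST by 1.13 and -0.01, with differences of 1.42 (adjusted p = 7.9e-05) and 1.15 (adjusted p = 7.2e-07). ADM, a vasodilator peptide, was lower with BRD8518, with changes of -0.32 and 1.19 (difference -1.52, adjusted p = 4.3e-06). Of 15 NF-kB targets and chemokines, 5 rose with BRD8518 and 4 with OSM, and the difference was higher with BRD8518 for 3 and lower for 1. Among the 3 were the chemokines CXCL8 (2.0 and 0.41, difference 1.6, adjusted p = 2.9e-06) and CCL20 (2.23 and 0.98, difference 1.25, adjusted p = 3.3e-06).

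The IL11 promoter is shown as an example of a gene that rose with BRD8518 alone. The window is chr19:55370414-55370713, minus strand, on GRCh38.p14 from RefSeq, and the capitals mark its AP-1 match, TGANTCA, which begins 96 bases before the start.
IL11: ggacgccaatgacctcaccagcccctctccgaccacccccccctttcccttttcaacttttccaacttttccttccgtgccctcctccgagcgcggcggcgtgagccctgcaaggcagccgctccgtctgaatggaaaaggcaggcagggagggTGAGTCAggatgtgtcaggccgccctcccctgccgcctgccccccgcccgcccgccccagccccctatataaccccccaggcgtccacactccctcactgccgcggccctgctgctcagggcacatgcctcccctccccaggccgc
On either strand, TGANTCA stood in 10.7% of the promoters of shared rises, in 6.82% of those of genes that rose with BRD8518 alone, in 6.02% of those of genes that rose with OSM alone and in 6.32% of all. The related cAMP response element TGACGTCA, which neither holds nor lies within the AP-1 letters, stood in 5.37%, 2.08%, 3.61% and 2.29%.

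Among NRF2 targets and integrated stress response genes, more rose than fell with BRD8518. Over all genes 5.62% rose and 8.86% fell with BRD8518, and 2.03% rose and 0.813% fell with OSM. Of 7 measured NRF2 targets, 4 rose and 1 fell with BRD8518 and 1 rose with OSM. SRXN1, which repairs peroxiredoxins, changed by 1.29 and 0.10 (difference 1.19, adjusted p = 7.8e-06), and TXNRD1, thioredoxin reductase, by 0.80 and 0.02 (difference 0.78, adjusted p = 5.2e-05). HMOX1, the heme-degrading oxygenase also counted in this list, was lower with BRD8518 and is described with the opposed genes. Of 13 integrated stress response genes, 5 rose and 1 fell with BRD8518, 2 rose and 1 fell with OSM, and the difference was higher with BRD8518 for 4. DDIT3 (CHOP, a stress transcription factor) changed by 1.61 and 0.47 (difference 1.14, adjusted p = 3.6e-05) and SESN2, an inhibitor of mTORC1, by 0.81 and 0.12 (difference 0.69, adjusted p = 0.0015). Of 8 genes of ER folding, 1 rose and 3 fell with BRD8518, 1 rose with OSM, and the difference was higher for 1 and lower for 1 (4 without DMSO 6 h replicate 2). The falls were SDF2L1 (-0.58), CRELD2 (-0.52) and MANF (-0.28), and none of the 3, named after their values were seen, passed in the difference. ERN1, the ER stress sensor IRE1, rose by 1.11 with BRD8518 and had 0.15 with OSM (difference 0.96, adjusted p = 4.3e-06), while XBP1, the factor it splices, had 0.04 with BRD8518 and rose by 0.93 with OSM (difference -0.89, adjusted p = 1.6e-05). None of the 20 listed amino acid transporters had a named probe set here.

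Many genes of DNA replication, and some of mitosis and sterol synthesis, fell with BRD8518. Of 25 measured genes of DNA replication and licensing, 18 fell with BRD8518 and none rose, against 8.86% of all genes that fell, and none passed with OSM in either direction. The difference was lower with BRD8518 for 8. The median change was -0.44 with BRD8518 and -0.08 with OSM. In bulk RNA, fewer cells in a phase and less RNA per cell cannot be told apart. FEN1, the flap endonuclease of lagging-strand synthesis, had 6.70 and 6.83 with BRD8518 against 7.69, 8.12, 7.77 and 7.88 with DMSO, and 7.53, 7.57 and 7.55 with OSM against 7.63, 7.64 and 7.59 with DMSO. The BRD8518 arrays lay below all others. FEN1 fell by 1.10 with BRD8518 and its OSM change was -0.07 (difference -1.03, adjusted p = 9.4e-05). GINS3, a subunit of the replicative helicase, had changes of -0.98 and 0.02 (difference -1.0, adjusted p = 7e-06) and CCNE2, cyclin E2, of -0.82 and 0.18 (difference -1.0, adjusted p = 0.0042). Of 26 mitosis genes 13 fell with BRD8518, none rose, and the difference was lower for 5 (2 with arrays centred, 13 without DMSO 6 h replicate 2), among them the kinesin KIF20A (-0.53 and -0.00, difference -0.53, adjusted p = 0.0028).

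Of 19 genes of cholesterol synthesis and uptake, 8 fell with BRD8518, none passed with OSM, and the difference was lower for 4. IDI1, an isomerase of the isoprenoid pathway, had 7.43 and 7.21 with BRD8518 against 8.04 to 8.22 with DMSO, and 8.29, 8.27 and 8.28 with OSM against 8.11 to 8.21 with DMSO. It fell by 0.82 with BRD8518 and had 0.11 with OSM (difference -0.94, adjusted p = 1.8e-05). FDPS, farnesyl diphosphate synthase, had -0.72 and 0.26 (difference -0.98, adjusted p = 0.00069), and MVK, mevalonate kinase, -0.70 and 0.02 (difference -0.71, adjusted p = 0.0037). Of 14 hypoxia targets 5 fell and 1 rose with BRD8518 and 2 rose with OSM. HILPDA, an inhibitor of fat breakdown, had 5.81 and 5.93 with BRD8518 against 7.16 to 7.48 with DMSO, and 6.83, 7.03 and 7.02 with OSM against 7.11 to 7.14 with DMSO (difference -1.31, adjusted p = 6.5e-06). EPO, the red cell hormone that this line makes, had changes of -1.11 and 0.22 (difference -1.33, adjusted p = 1.5e-05). With arrays centred, 16 of 25 replication, 11 of 26 mitosis, 7 of 19 cholesterol and 3 of 14 hypoxia genes fell in the BRD8518 arm. Without DMSO 6 h replicate 2 the counts of falls were 20, 19, 10 and 5, while falls over all 14884 genes grew from 1319 to 2182. In the difference, without that array, 14 replication, 10 cholesterol and 6 hypoxia genes were lower with BRD8518 and 1 cholesterol gene was higher. Over all genes those lower in the difference grew from 528 to 1068.

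Of 18 genes of lipoprotein secretion and remodelling, none passed in the difference with all arrays and 4 were lower with BRD8518 without DMSO 6 h replicate 2. APOB, the structural protein of VLDL, had 12.59 and 12.47 with BRD8518 against 12.56 to 12.64 with DMSO, and 12.53, 12.56 and 12.48 with OSM against 12.49 to 12.66 with DMSO (difference -0.02, 95% interval -0.22 to 0.18). MTTP, which loads lipid onto APOB, had 8.78 and 8.71 with BRD8518 against 9.08, 7.96, 8.95 and 9.01 with DMSO at 6 h, the value of 7.96 being that of replicate 2. Its difference was 0.11 (95% interval -0.45 to 0.67). Without replicate 2 the BRD8518 change of MTTP was -0.27, which passed only with the 12 arrays alone, and the difference was -0.16, which did not pass. In the BRD8518 arm 5 of the 18 fell, where 8.86% of all genes did, and none passed with OSM. Of 23 genes of fatty acid and triglyceride synthesis, 4 fell with BRD8518, 1 rose with OSM and the difference was lower with BRD8518 for 4. The 4 became 1 with arrays centred and 6 without DMSO 6 h replicate 2, where 10 of the 23 fell with BRD8518. Leaving out that array also raised the falls over all genes from 1319 to 2182.

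Several feedback inhibitors of gp130 signalling were lower with BRD8518 than with OSM. SOCS3, which blocks JAK kinases bound to gp130, had the largest difference of all. It had 5.99 and 5.99 with BRD8518 against 5.55, 5.89, 5.26 and 5.46 with DMSO at 6 h, and 10.30, 10.26 and 10.13 with OSM against 5.4, 5.62 and 5.41 with DMSO at 1 h. The OSM arrays stood far above all others. SOCS3 rose 26.9-fold with OSM and 1.37-fold with BRD8518 (difference -4.30 ± 0.20 SE, adjusted p = 4.4e-12). The BRD8518 rise of 0.45 (adjusted p = 0.036), which put SOCS3 among the shared genes, missed the threshold when either BRD8518 array was left out. CISH, a SOCS relative that binds cytokine receptors, had 6.06 and 5.80 with BRD8518 against 5.84 to 6.14 with DMSO, and 7.59, 7.67 and 7.48 with OSM against 5.74 to 5.94 with DMSO (difference -1.78, adjusted p = 5.9e-09). Of 23 STAT3 targets and feedback genes measured, 10 rose and 2 fell with BRD8518, 12 rose with OSM, and the difference was higher with BRD8518 for 4 and lower for 10. Those 4 included SOCS6, which targets receptor kinases (1.00 and -0.12, difference 1.11, adjusted p = 0.00052), and BCL6, a repressor (0.68 and 0.12, difference 0.56, adjusted p = 0.0065).

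The CISH and IRF1 promoters are shown because both genes rose with OSM and are known STAT targets. Capitals mark the STAT motif TTCNNNGAA, found 4 times in CISH (chr3:50611725-50612024, minus strand) and once in IRF1 (chr5:132490724-132491023, minus strand), on GRCh38.p14 from RefSeq. The 2 were chosen after their matches were seen.
CISH: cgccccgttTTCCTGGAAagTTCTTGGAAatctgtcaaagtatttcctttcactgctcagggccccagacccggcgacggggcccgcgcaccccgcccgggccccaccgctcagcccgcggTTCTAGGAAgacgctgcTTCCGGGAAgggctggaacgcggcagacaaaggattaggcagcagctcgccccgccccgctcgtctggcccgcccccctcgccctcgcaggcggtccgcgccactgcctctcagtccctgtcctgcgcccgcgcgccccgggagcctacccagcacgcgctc
IRF1: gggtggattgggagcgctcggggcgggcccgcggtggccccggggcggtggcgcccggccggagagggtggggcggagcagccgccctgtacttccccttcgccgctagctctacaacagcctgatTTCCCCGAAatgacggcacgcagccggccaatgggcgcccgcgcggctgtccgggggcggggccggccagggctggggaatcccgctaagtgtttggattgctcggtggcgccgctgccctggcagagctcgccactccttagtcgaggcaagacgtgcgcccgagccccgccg
The CISH matches begin 241, 230, 129 and 112 bases before the start, and the IRF1 match begins 124 bases before it. This motif reads the same on both strands. It stood in 14.5% of the 83 promoters of genes that rose with OSM alone, in 8.05% of those of shared rises, in 4.45% of those of genes that rose with BRD8518 alone and in 6.72% of all 14884.

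Acute phase proteins, which the liver secretes in inflammation, rose mainly with OSM. Of 16 measured, 10 rose with OSM, 1 rose with BRD8518 and none fell, and the difference was lower with BRD8518 for 7. The median change was 0.07 with BRD8518 and 0.58 with OSM. LBP, which presents bacterial lipopolysaccharide, had 4.87 and 5.22 with BRD8518 against 4.70, 5.12, 4.50 and 4.80 with DMSO, and 8.42, 8.45 and 8.54 with OSM against 4.74, 4.87 and 4.62 with DMSO. BRD8518 arrays overlapped their controls through the 5.12 of DMSO 6 h replicate 2, and LBP rose 13.3-fold with OSM (difference -3.46, adjusted p = 8.5e-11). The BRD8518 change of LBP, 0.27, did not pass with all arrays, but without that replicate it was 0.38 and passed. HP, haptoglobin, changed by 0.05 with BRD8518 and 1.58 with OSM (difference -1.53, adjusted p = 3e-07), HPX, hemopexin, by -0.15 and 1.77 (difference -1.92, adjusted p = 1.3e-08), and FGB, fibrinogen beta, by 0.09 and 1.14 (difference -1.05, adjusted p = 5e-05). LRG1, a secreted glycoprotein and STAT3 target, had 8.86 and 8.88 with BRD8518 against 8.77 to 9.01 with DMSO, and 10.99, 10.94 and 10.92 with OSM against 8.53 to 8.82 with DMSO (difference -2.26, adjusted p = 2.5e-10). ORM1 (0.48 with BRD8518, 0.63 with OSM) and ITIH3 (0.22 and 0.48) rose with OSM, but their difference did not pass. HAMP, hepcidin, the iron-regulating hormone, was the 1 member called in both arms with all arrays, a shared rise. It had 10.18 and 10.37 with BRD8518 against 8.80 to 9.76 with DMSO, and 10.51, 10.24 and 10.40 with OSM against 8.80 to 8.95 with DMSO (difference -0.45, 95% interval -1.02 to 0.11).

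Beside these, RIPK4, a kinase of epidermal differentiation, had -0.18 with BRD8518 and 2.29 with OSM (difference -2.47, adjusted p = 2.1e-09), and PROX1, a hepatocyte and lymphatic transcription factor, had 0.03 and 0.84 (difference -0.81, adjusted p = 6.5e-06). IRF9, an interferon regulatory factor, had -0.18 and 1.23 (difference -1.42, adjusted p = 1e-07). Of 10 gp130 receptor and JAK-STAT components, 2 rose with BRD8518 and 3 with OSM, and the difference was higher with BRD8518 for 1, lower for 1 and did not pass for 8. OSMR, the OSM-specific receptor chain, had 9.42 and 9.24 with BRD8518 against 9.30 to 9.47 with DMSO, and 9.82, 9.80 and 9.79 with OSM against 9.29 to 9.31 with DMSO (difference -0.56, adjusted p = 0.00079). IL6R, the interleukin-6 receptor chain, rose by 1.05 with BRD8518 and by 0.37 with OSM (difference 0.68, adjusted p = 0.0015), and STAT3 rose by 0.34 and 0.37 (difference -0.03).

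Only 18 genes fell with OSM alone, and leaving out BRD8518 6 h replicate 1 or DMSO 1 h replicate 1 gave 8 each, DMSO 1 h replicate 3 or OSM 1 h replicate 1 gave 9 each, and BRD8518 6 h replicate 2 gave 11. Leaving out DMSO 6 h replicate 2 gave 32. TXNIP, an arrestin-fold inhibitor of glucose uptake, had 8.08 and 7.91 with BRD8518 against 7.51 to 8.32 with DMSO, and 6.89, 7.07 and 6.96 with OSM against 8.25, 8.34 and 8.28 with DMSO. It fell by 1.32 with OSM and had -0.01 with BRD8518 (difference 1.31, adjusted p = 0.00018). Its relative ARRDC3 had 0.15 with OSM and rose by 1.55 with BRD8518 (difference 1.41, adjusted p = 3e-05). SMAD7, the inhibitory SMAD of TGF-beta signalling, had 7.95 and 7.95 with BRD8518 against 7.53 to 7.86 with DMSO, and 6.6, 6.88 and 6.5 with OSM against 7.60 to 7.68 with DMSO (difference 1.24, adjusted p = 3.6e-05).

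**Figure D3:**
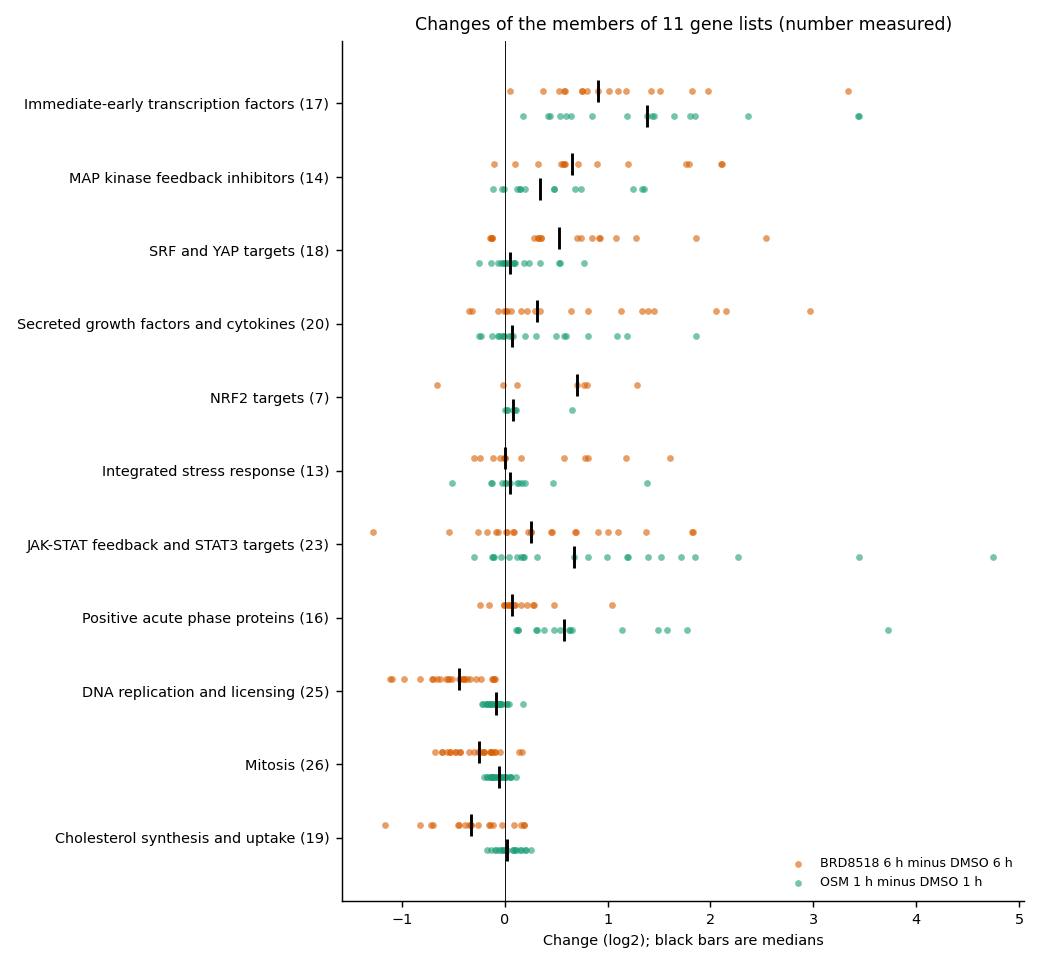
Log2 changes of the measured members of 11 gene lists, with the BRD8518 6 h change in orange above the OSM 1 h change in green. Points are genes and black bars medians. The immediate-early factors lie to the right in both arms (medians 0.91 and 1.38), SRF and YAP targets mainly with BRD8518 (0.53 and 0.05), acute phase proteins with OSM (0.07 and 0.58), and DNA replication genes to the left with BRD8518 (-0.44 and -0.08).

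The 18 genes with opposite signs included 2 STAT-linked genes with large effects. SOCS1, a JAK inhibitor, had 6.35 and 6.39 with BRD8518 against 7.43, 8.12, 7.56 and 7.49 with DMSO at 6 h, and 8.91, 8.82 and 8.85 with OSM against 7.44, 7.53 and 7.45 with DMSO at 1 h. All treated arrays lay outside their control range, below it with BRD8518 and above it with OSM. SOCS1 fell by 1.28 with BRD8518 (adjusted p = 7.8e-07) and rose by 1.39 with OSM (adjusted p = 1.6e-07), and the difference was -2.67. IRF1, an interferon response factor, had 5.36 and 5.22 with BRD8518 against 5.63, 6.10, 5.63 and 5.70 with DMSO, and 8.38, 8.72 and 8.50 with OSM against 5.62, 5.61 and 5.54 with DMSO. It fell by 0.48 with BRD8518 (adjusted p = 0.0055), a call lost without BRD8518 replicate 2, and rose by 2.94 with OSM. HMOX1 fell by 0.66 and rose by 0.65, and the zinc finger gene ZNF101 fell by 0.90 with BRD8518 and rose by 1.05 with OSM. FBXO5, an inhibitor of the anaphase-promoting complex, and ZBTB14, a zinc finger factor, moved by -0.73 and -0.60 with BRD8518 and by 0.52 and 0.56 with OSM.

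MicroRNA loci showed both patterns, and their mature sequences from RefSeq on GRCh38.p14 are shown with the seed, bases 2 to 8, in capitals. A probe set of this kind measures the precursor or its surrounding transcript and cannot see the mature microRNA.
miR-21-5p (MIR21, chr17:59841273-59841294, plus strand): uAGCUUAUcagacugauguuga
miR-146a-5p (MIR146A, chr5:160485372-160485393, plus strand): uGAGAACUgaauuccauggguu
miR-146b-5p (MIR146B, chr10:102436520-102436542, plus strand): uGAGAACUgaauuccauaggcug
MIR21, which lies in VMP1, was a shared rise, with 9.41 and 9.24 with BRD8518 against 7.11 to 7.46 with DMSO, and 8.87, 9.49 and 9.28 with OSM against 7.20 to 7.54 with DMSO (changes 2.03 and 1.81, difference 0.22, 95% interval -0.19 to 0.63). The miR-146 pair share the seed GAGAACU and 20 of 22 compared positions, yet their loci did not move alike in the 2 arms. MIR146A had 7.04 and 6.65 with BRD8518 against 6.24, 6.01, 6.31 and 6.17 with DMSO, and 5.56, 5.63 and 5.69 with OSM against 6.13, 6.02 and 6.17 with DMSO. It rose by 0.66 with BRD8518 and fell by 0.48 with OSM (difference 1.14, adjusted p = 1.7e-05). The OSM fall was lost with the 12 arrays alone. At 24 h MIR146A had 6.65, 6.48 and 6.80 with OSM, above the 6.05, 6.08 and 6.00 with DMSO. MIR3142, which lies in the same host transcript MIR3142HG, moved likewise in the 2 arms (0.80 and -0.95, difference 1.75, adjusted p = 0.00039). Its values in the 12 arrays, 2.70 to 4.55, were also low, so these sizes are uncertain. The BRD8518 change of MIR3142 was 0.65 without BRD8518 replicate 1. The OSM call was lost without DMSO 1 h replicate 1 (-0.81). MIR146B had 3.40 and 3.48 with BRD8518 against 3.07 to 3.27 with DMSO, and 5.44, 6.09 and 5.97 with OSM against 2.85 to 3.26 with DMSO. It rose by 2.72 with OSM and its BRD8518 change of 0.27 did not pass (difference -2.45, adjusted p = 2.8e-06). Values of MIR146B in the other groups of the contrast, 2.85 to 3.48, lie where signal is low, so these sizes are uncertain. MIR3189, with changes of 2.78 and 0.97, lies in the growth factor gene GDF15, a shared rise of 1.45 and 0.81, so the probe sets of the 2 may read the same transcript.

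The 24 h arrays of the 2 agents entered neither arm and compare them at 1 time. Between BRD8518 and OSM at 24 h, 3458 genes differed (23.2%), with 1623 higher (10.9%) and 1835 lower (12.3%) with BRD8518. Of the 338 genes higher with BRD8518 in the difference, 256 (75.7%) were higher with BRD8518 at 24 h and 2 lower. Of the 528 lower genes, 304 (57.6%) were lower at 24 h and 17 (3.22%) higher. SOCS3 had 5.55, 5.45 and 5.62 with BRD8518 at 24 h against 8.90, 8.79 and 8.62 with OSM at 24 h, and LBP had 4.89, 4.93 and 4.94 against 10.23, 10.50 and 10.47. IL11 had 9.51, 9.53 and 9.57 with BRD8518 against 6.33, 6.21 and 6.32 with OSM, and DUSP5 had 9.43, 9.35 and 9.45 against 5.48, 5.64 and 5.66. Arrays of the 2 agents did not overlap for these 4 genes, as for 43.4% of all genes. Of the 15 opposed genes higher with OSM, 13 were lower with BRD8518 at 24 h.

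At 24 h many shared rises differed between the agents. Of the 141, 72 (51.1%) were higher and 19 (13.5%) lower with BRD8518 at 24 h. JUN, whose changes of 1.98 and 1.80 did not differ past the threshold, had 9.38, 9.43 and 9.31 with BRD8518 at 24 h, against 7.68, 7.63 and 7.69 with OSM at 24 h, where the DMSO 24 h arrays had 7.64, 7.80 and 7.86. EGR1 had 10.66, 10.55 and 10.53 with BRD8518 against 9.30, 9.53 and 9.61 with OSM (difference at 24 h 1.10, adjusted p = 1.1e-06). CSRNP1 and PROX1, lower in the contrast, had differences of 0.13 and 0.11 at 24 h that did not pass, and TXNIP, higher in the contrast, had 0.05.

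**Figure D4:**
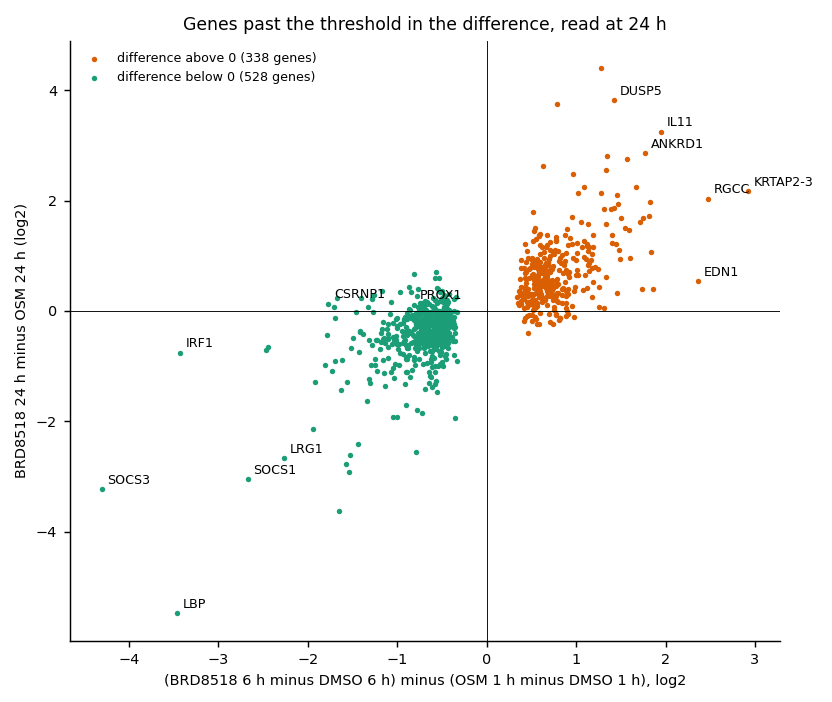
For the 866 genes past the threshold, the difference of effects (horizontal axis, log2) against BRD8518 minus OSM at 24 h (vertical axis, log2), from arrays that enter neither arm. Orange points are the 338 genes above 0 in the difference and green points the 528 below 0. SOCS3, LBP and SOCS1 lie low on the left and IL11, ANKRD1 and KRTAP2-3 high on the right, while CSRNP1 and PROX1 lie near 0 on the vertical axis.

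BRD8518 was also measured at 1 h, on 3 arrays that share the DMSO 1 h controls with the OSM arm, and these are given as levels only. EGR1 had 11.23, 11.58 and 11.51 and JUN 9.14, 9.41 and 9.25 with BRD8518 at 1 h, near the levels quoted for OSM at 1 h. MIR21 had 8.61, 8.91 and 8.81. Several other shared rises stood well below their OSM levels. Mean levels at 1 h with BRD8518 and with OSM were 10.65 and 11.68 for IER3, and 9.17 and 10.07 for KLF6. They were 8.07 and 9.02 for FOSL1, 5.76 and 7.51 for HBEGF, 7.67 and 9.11 for LINC-PINT, and 9.33 and 10.81 for TRIB1. SOCS3 had 5.32, 5.87 and 5.69, LBP 4.76, 4.79 and 5.05, and CISH 5.90, 6.06 and 5.91. The SOCS3 values lay on both sides of the DMSO 1 h range, and LBP and CISH each had 2 arrays inside it. Among genes higher with BRD8518 in the contrast, IL11 had 6.38, 6.54 and 6.52, KRTAP2-3 6.06, 6.02 and 6.03 and TAGLN 7.20, 7.37 and 7.33, all above the DMSO 1 h arrays but below the BRD8518 6 h arrays. EDN1 had 6.29, 6.77 and 6.57 and DUSP1 8.68, 8.76 and 8.64, also between the levels of those arrays. SOCS1, which fell with BRD8518 at 6 h, had 7.16, 7.4 and 7.21 at 1 h. OSM at 6 h was not analysed here.

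Without DMSO 6 h replicate 2 the difference held 1622 genes, 554 higher and 1068 lower, and 865 of the 866 first called were among them. The BRD8518 arm held 3345, 1163 up and 2182 down, and the OSM arm, whose own arrays were the same, held 806 through the smaller spread estimated in the common fit. Shared genes numbered 425, 209 rises and 216 falls, and 202 of the 203 were among them. They were 52.7% of the OSM list and 12.7% of the BRD8518 list, and 44 genes had opposite signs. Genes given to 1 arm numbered 427 rises and 814 falls with BRD8518 and 115 rises and 32 falls with OSM. By list, immediate-early factors had 16 rises with BRD8518 and 16 with OSM of 17, and MAP kinase feedback inhibitors 11 and 7 of 14. SRF and YAP targets had 13 rises with BRD8518, and 5 rises and 1 fall with OSM, of 18. Acute phase proteins had 4 rises and 1 fall with BRD8518 and 12 rises with OSM, of 16.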

How the data were processed

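Total RNA of HepG2 cells was hybridised to whole-transcript arrays with 53617 probe sets. The deposited values are log2 expression that the authors computed with oligo's RMA, as per the submitters' processing notes (versions not given in the sources used here), and they were not normalised again. Array medians lay between 4.89 and 4.95. Of the probe sets, 16098 carried 1 gene symbol, 37519 were unnamed, and for the 779 genes with several the probe set of highest mean was kept, which left 14884 genes. There is no read depth for arrays; the precision is limited by how many there are.

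limma 3.58.1 in R 4.3.3 fitted 1 mean per group over all 24 arrays, with moderated tests of both arms, their difference and BRD8518 against OSM at 24 h, and Benjamini-Hochberg adjustment over 14884 genes at 0.05. The spread is thus shared by all groups (21.3 degrees of freedom). On simulated data the difference test recovered 22% of genes changed by 0.5, 86% by 1, 94% by 1.5 and 100% by 2 on the log2 scale, with 3.21% false calls. The simulation changed 50 genes per size and gave each gene independent normal spread, the same on every array. No array in it stood apart as DMSO 6 h replicate 2 did, so these rates need not hold for the real arrays. Adjusted p-values in the report are from this fit.

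Members and gene lists were chosen with earlier results of these data known. The rule for named genes took the 10 largest differences each way whose treated and control arrays stood apart in the arm of larger change. It also took the 12 largest shared rises, the 6 largest shared falls and up to 6 opposed genes each way. A panel (TRIB1, TRIB2, TRIB3, SOCS3, APOB, MTTP, EGR1) was added, with up to 4 differing members each way and 4 shared members per list. Not all are described above. Among those left out, MIR548L (difference 1.84, adjusted p = 0.035) and SNAR-B1 (-1.80, adjusted p = 0.04) lost the call under 8 and 9 of 23 alternatives. MIR4521 and MRPS31P5, with opposite signs, were also left out. Alternatives were the 12 arrays alone, other scalings, filters, probe-set rules and array weights, the position letter, and each array left out. TRIB1 is described without a test. Figures were drawn with matplotlib 3.10.9. Promoters and microRNAs came from RefSeq tables. The result of 1 gene list is not reported here.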

Additional observations from a re-analysis of the deposited data

Results flagged for a closer look

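Among the 4 DMSO 6 h arrays, 15 of the 132 named genes had 1 array far from the others by Dixon's criterion, which chance meets in about 1 in 20 groups. DMSO 6 h replicate 2 was that array for 14 of the 15. It lay high for IRF1 (6.10, others 5.63 to 5.70), JUNB (7.61, others 7.03 to 7.12), HMOX1 (8.21, others 8.03 to 8.05), CSRNP1 (6.84, others 6.39 to 6.44), PIM1 (8.62, others 7.93 to 8.02), ADM (6.6, others 6.30 to 6.34) and ACAT2 (9.45, others 9.26 to 9.29). It lay low for FBXO5 (7.58, others 8.11 to 8.21), MTTP (7.96, others 8.95 to 9.08), STAT3 (10.04, others 10.38 to 10.42), SOCS6 (8.06, others 8.75 to 8.79), FGB (9.89, others 10.31 to 10.36), CDCA8 (8.76, others 9.40 to 9.49) and TAT (6.43, others 7.12 to 7.19). For TRIB1 it was replicate 1, at 8.96 with the others at 9.2 to 9.23.

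Of the 37519 probe sets without a gene name, 488 passed the threshold in the difference of effects (1.3%), 239 higher and 249 lower with BRD8518. They entered no comparison of genes.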

How the results depend on the processing

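No paired analysis was possible because the labels give no replicate numbers that the groups share, and numbers given in accession order pair nothing. The counts below are for the difference, the BRD8518 arm, the OSM arm, same-sign genes and opposite-sign genes, in that order, and were 866, 2155, 423, 203 and 18. With the 12 arrays alone they were 351, 1358, 235, 103 and 9. With array weights, where DMSO 6 h replicate 2 weighed 0.064, they were 1755, 3466, 1125, 571 and 62. With arrays centred and that replicate left out they were 1563, 3534, 801, 428 and 40. With the 12 arrays alone and without it, the difference held 1324 genes and 34 had opposite signs. The filter on low signal gave 33 genes with opposite signs. Leaving out single arrays gave 520 to 1622 for the difference (520 without BRD8518 6 h replicate 1, 527 without replicate 2 and 1622 without DMSO 6 h replicate 2), 1208 to 3345 for the BRD8518 arm, 274 to 806 for the OSM arm, 137 to 425 for same-sign genes and 12 to 44 for opposite signs. The cause of these shifts was not tested, beyond the fewer arrays. Of 102 named genes past the threshold in the difference, 76 passed under all 23 alternatives and 26 missed it under at least 1. None of the 102 changed sign, while 10 of the 30 that did not pass did, EGR1 and MTTP among them. With the 12 arrays alone, the filter on low signal or the position letter as a term, the estimates stay the same by design. Such alternatives could therefore change no sign. With 2 BRD8518 arrays, and with separate cultures not stated, small differences cannot be settled here.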

Other observations

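Other gene lists showed smaller splits. Of 11 Kruppel-like factors, 5 rose with BRD8518 and 3 with OSM, and the difference was higher with BRD8518 for KLF5 and KLF3 and lower for KLF10 (0.91 with BRD8518, 1.68 with OSM). Of 12 p53 targets, 4 rose with BRD8518 and 3 with OSM, and the difference was higher for 3, among them the kinase PLK3 (2.20 and 1.07). Of 10 hepatocyte transcription factors, 3 rose and 4 fell with BRD8518, and 3 rose and 1 fell with OSM. Over all genes 5.62% rose and 8.86% fell with BRD8518, and 2.03% rose and 0.813% fell with OSM. Of 6 genes of the bile acid axis, 1 rose with BRD8518, BAAT, the enzyme that conjugates bile acids to amino acids, and none passed with OSM. Of 10 TGF-beta and BMP feedback genes, 4 rose with BRD8518, and 1 rose and 1 fell with OSM.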
